A study of Mus musculus with 16 samples.

Results

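The transcripts described here encode 10 proteins that build and hold together the poles of the oocyte spindle: Tpx2, Aurka, Plk1, Plk4, Cep192, Pcnt, Tacc3, Ckap5, Numa1 and Katnal1. They were chosen by gene name as components of spindle poles that form without centrioles. All 10 were found among 27987 gene names, in 11 of 28618 entries, because Plk4 had 2 entries. Levels are in FPKM, fragments scaled to transcript length and to library size. One of the Plk4 entries did not exceed 0.0210 FPKM in any library and was not tested, and Plk4 means the other entry throughout.

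Animal cells usually organise spindle poles around a pair of centrioles, but mouse oocytes lose their centrioles early and build the meiotic spindle from many small acentriolar microtubule-organising centres. Scaffold proteins such as pericentrin and CEP192 recruit kinases and nucleation factors to these centres, which break up, spread around the chromosomes and are sorted into opposite poles after the germinal vesicle (GV) breaks down. The work is done largely by protein made from maternal mRNA stored in the growing oocyte, and during maturation to the metaphase II (MII) egg, when transcription is silent, stored mRNAs are translated, kept or degraded at very different rates.

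RNA sequencing by Smart-seq2, which primes on poly(A) tails, was performed on pooled mouse oocytes in 4 groups of 4 libraries. WT groups are labelled wildtype, and Psma7 cKO groups carry the genotype Zp3-Cre; Psma7 flox/flox, in which Cre under the Zp3 promoter, active in growing oocytes, deletes the gene of a proteasome alpha subunit. All females were 3 to 4 weeks old and received 5 IU of pregnant mare serum gonadotropin; GV oocytes were collected 44 h later, and MII eggs 14 to 16 h after human chorionic gonadotropin given at 44 h, from the oviducts, and digested with 0.3% hyaluronidase. Each library was made from 5 pooled oocytes per the labels (the study's own methods name a larger pool, of embryos), and neither source ties a library to an animal, so p-values measure the spread between these pools. The study reports that some ovulated Psma7 cKO oocytes stopped before MII. MII is the label of the egg pools, and whether their mix of stages differed between genotypes was not tested. Depth, as inferred from the smallest values, was 10500000 to 15700000 fragments per library, with overlapping ranges in the 4 groups.

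The targeted gene was checked first. WT GV oocytes had 154, 142, 201 and 164 FPKM of Psma7, and Psma7 cKO GV oocytes had 14.5, 14.7, 11.1 and 18.0 FPKM. WT eggs had 118, 116, 97.7 and 172 FPKM of Psma7, and Psma7 cKO eggs had 13.6, 50.3, 35.0 and 59.9 FPKM. Every Psma7 cKO library was below every WT library of its stage. Relative to the mean, the spread was widest among Psma7 cKO eggs (coefficient of variation 50.9%), whose replicate 1 was lowest. In FPKM the SD was largest in WT eggs (32.1 FPKM, and 20.2 FPKM in Psma7 cKO eggs). The mean in Psma7 cKO was 8.83% of WT at GV and 31.5% of WT at MII, with a two-sided exact permutation p = 0.0286 at each stage, the smallest p that 4 against 4 libraries allow. Which exons the remaining fragments came from cannot be read from gene-level values. In the limma fit the log2 difference was -3.51 ± 0.15 (SE, adjusted p = 8.98e-07) at GV. At MII it was -1.83 ± 0.41 (adjusted p = 0.0359), a call that was lost without any 1 of the WT egg replicates 1 to 4 (0.101, 0.0731, 0.0767 and 0.0826) or without Psma7 cKO egg replicate 3 (0.0610), with no filter (0.0549) and with the replicate number as a block (0.0515), while the log2 difference stayed between -2.10 and -1.38. The genotype by stage interaction of Psma7 was 1.68 ± 0.47 (adjusted p = 0.0847, and 0.00270 without Psma7 cKO egg replicate 1).

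The cells carried the markers of oocytes. All 10 oocyte markers were at 1 FPKM or more in each of the 16 libraries, and their summed level was 16148 to 16973 FPKM in GV libraries of both genotypes, 9309 to 10667 FPKM in WT eggs and 9677 to 11932 FPKM in Psma7 cKO eggs. The most abundant was Zp3, a zona pellucida glycoprotein, in every GV library and H1foo, the oocyte linker histone, in every egg library. Of 16 cumulus and granulosa markers, 14 stayed under 1 FPKM in each of the 16 libraries. The exceptions were Cyp19a1 (aromatase), the most abundant of the list at 6.20 to 15.2 FPKM, and Kitl (Kit ligand). The summed granulosa list did not overlap between the genotypes at GV (12.8 to 14.8 FPKM in WT, 15.4 to 17.8 FPKM in Psma7 cKO). It overlapped in eggs (17.4 to 21.6 FPKM in WT, 19.4 to 21.0 FPKM in Psma7 cKO), and its part in the differences between groups was not tested. Amh, Amhr2 and Foxl2, which define granulosa cells, were at 0 in all 8 egg libraries. They were not all at 0 at GV, where Amhr2 averaged 0.0242 (WT) and 0.0536 FPKM (Psma7 cKO). Of the 16 markers, 5 were at 0 in every WT egg library and 4 in every Psma7 cKO egg library. In each genotype 2 were at 0 in every GV library. Others were detected in eggs, such as Ptgs2 (means of 0.328 for WT, 0.204 for Psma7 cKO) and Star (0.233, 0.136). With a mean of at least 1 FPKM, 2 of the 16 were tested. Between genotypes limma called 0 of 2 at each stage, with 0 at an unadjusted p under 0.05 and medians of 0.29 at GV and 0.05 at MII. From GV to MII both were called higher in WT, Cyp19a1 by 0.76 (log2, adjusted p = 0.000372) and Kitl by 0.59 (adjusted p = 0.00769), and in Psma7 cKO Cyp19a1 was, by 0.51 (adjusted p = 0.00160).

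Libraries of Psma7 cKO eggs differed in how far other maternal transcripts had declined. Over 397 entries that fell more than 10-fold from WT GV oocytes to WT eggs, spindle pole genes left out, WT egg libraries kept 5.93, 6.80, 6.22 and 6.05% of the GV level of their genotype. Psma7 cKO egg libraries kept 12.7, 8.80, 34.5 and 19.0%. Replicate 3 was the highest and replicate 2 the closest to WT. The entries were selected on the WT decline, so these percentages are a description with no test.

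Aurora A, the product of Aurka, is the kinase that drives microtubule nucleation at acentriolar centres, and TPX2 binds and activates it. Aurka was at 259, 286, 277 and 298 FPKM in WT GV oocytes, 303, 294, 277 and 268 FPKM in Psma7 cKO GV oocytes, 102, 106, 114 and 117 FPKM in WT eggs and 147, 126, 161 and 154 FPKM in Psma7 cKO eggs. All GV libraries lay above all egg libraries, the genotypes overlapped at GV, and every Psma7 cKO egg library lay above every WT egg library. Tpx2 was at 67.8, 71.8, 72.5 and 69.0 FPKM in WT GV oocytes, 66.7, 72.9, 77.3 and 71.2 FPKM in Psma7 cKO GV oocytes, 115, 120, 116 and 120 FPKM in WT eggs and 104, 113, 105 and 101 FPKM in Psma7 cKO eggs. It ran opposite to Aurka, with eggs above GV oocytes and all 4 Psma7 cKO egg libraries below the lowest WT egg library.

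PLK1 is a kinase that helps release oocytes from prophase arrest and fragment the organising centres, and PLK4, the kinase that starts centriole duplication in somatic cells, works with Aurora A in mouse oocytes that have no centrioles. Plk1 was at 108, 101, 74.5 and 106 FPKM in WT GV oocytes, 69.5, 104, 101 and 91.7 FPKM in Psma7 cKO GV oocytes, 24.8, 27.2, 32.8 and 28.2 FPKM in WT eggs and 44.3, 32.6, 31.3 and 36.8 FPKM in Psma7 cKO eggs. The stages did not overlap in either genotype, whereas WT replicate 3 overlapped the Psma7 cKO range among eggs. Plk4 was at 45.1, 56.4, 46.9 and 46.7 FPKM in WT GV oocytes, 46.4, 48.6, 48.8 and 46.4 FPKM in Psma7 cKO GV oocytes, 74.3, 72.7, 81.9 and 84.4 FPKM in WT eggs and 57.3, 64.6, 65.0 and 71.7 FPKM in Psma7 cKO eggs. Eggs were above GV oocytes, and the highest Psma7 cKO egg library was just below the lowest WT egg library.

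The scaffolds behaved differently from each other. CEP192 anchors Aurora A and PLK1, and pericentrin (Pcnt) is the coiled-coil backbone of the organising centres. Cep192 was at 6.23, 5.84, 7.74 and 5.80 FPKM in WT GV oocytes, 5.48, 5.38, 4.57 and 5.69 FPKM in Psma7 cKO GV oocytes, 15.0, 16.6, 15.8 and 13.6 FPKM in WT eggs and 14.3, 14.3, 12.3 and 13.1 FPKM in Psma7 cKO eggs. Eggs lay far above GV oocytes, and the Psma7 cKO libraries were below the WT libraries at GV but overlapped them at MII. Pcnt was at 27.2, 29.9, 27.7 and 38.3 FPKM in WT GV oocytes, 27.6, 42.0, 38.5 and 31.5 FPKM in Psma7 cKO GV oocytes, 29.5, 31.4, 34.7 and 25.6 FPKM in WT eggs and 40.6, 31.4, 29.8 and 24.6 FPKM in Psma7 cKO eggs. All 4 groups overlapped, with group means of 30.3 to 34.9 FPKM and coefficients of variation of 12.5 to 21.1% within a group.

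TACC3 is an Aurora A substrate that carries ch-TOG, the microtubule polymerase encoded by Ckap5, along spindle microtubules. Tacc3 was at 264, 325, 242 and 298 FPKM in WT GV oocytes, 225, 268, 318 and 265 FPKM in Psma7 cKO GV oocytes, 103, 123, 117 and 114 FPKM in WT eggs and 118, 122, 128 and 121 FPKM in Psma7 cKO eggs. Only the stages separated, and the genotypes overlapped at both. Ckap5 was at 20.3, 19.3, 24.7 and 18.5 FPKM in WT GV oocytes, 17.3, 17.5, 16.9 and 18.9 FPKM in Psma7 cKO GV oocytes, 44.5, 46.0, 41.1 and 48.0 FPKM in WT eggs and 33.3, 38.1, 36.7 and 34.9 FPKM in Psma7 cKO eggs. Here eggs were above GV oocytes, and the 4 Psma7 cKO egg libraries were below the 4 WT egg libraries.

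NuMA, encoded by Numa1, works with dynein to gather microtubule minus ends into poles, and KATNAL1 belongs to the katanin family of microtubule-severing enzymes. Numa1 was at 7.23, 7.09, 8.41 and 8.50 FPKM in WT GV oocytes, 6.98, 8.06, 7.99 and 8.78 FPKM in Psma7 cKO GV oocytes, 11.6, 12.3, 12.4 and 10.5 FPKM in WT eggs and 10.7, 10.3, 9.21 and 9.49 FPKM in Psma7 cKO eggs. Eggs were above GV oocytes, and WT egg replicate 4 fell within the Psma7 cKO range. Katnal1 was at 4.60, 4.11, 3.90 and 4.56 FPKM in WT GV oocytes, 3.22, 4.61, 4.07 and 3.99 FPKM in Psma7 cKO GV oocytes, 3.25, 2.74, 2.93 and 3.28 FPKM in WT eggs and 1.97, 2.28, 2.26 and 2.66 FPKM in Psma7 cKO eggs. It was the lowest of the 10 transcripts in every group, and its Psma7 cKO egg libraries lay below its WT egg libraries. About 180 to 430 fragments stood behind each Katnal1 value, against about 3400 to 13000 behind each Tacc3 value, estimated from the annotated transcript length.

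**Figure D1:**
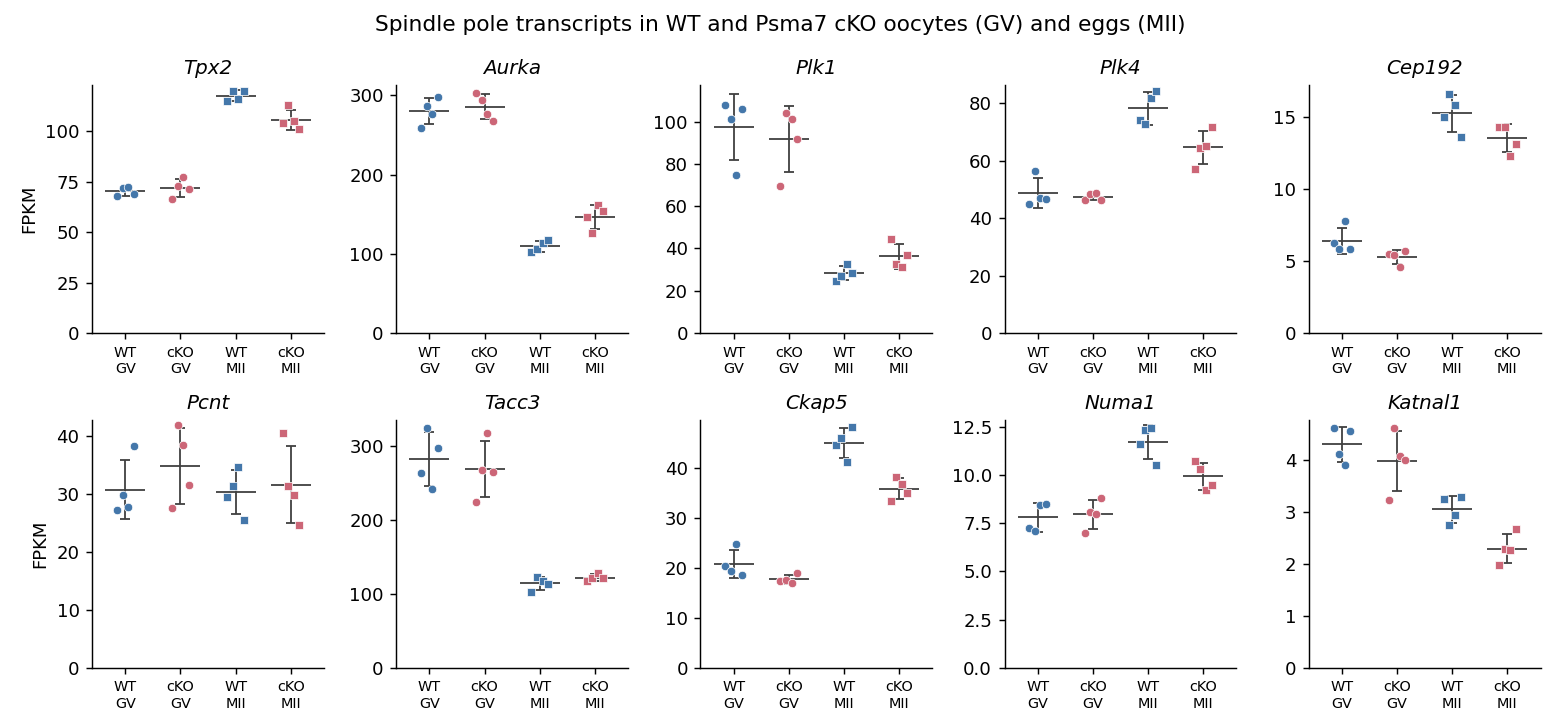
Level of each spindle pole transcript (y axis, FPKM, starting at 0) in the 4 groups (x axis), with each library as a point, circles for GV oocytes and squares for MII eggs, blue for WT and red for Psma7 cKO, and the bar and whiskers showing mean ± SD (n = 4). Tpx2, Plk4, Cep192, Ckap5 and Numa1 are higher in eggs, Aurka, Plk1, Tacc3 and Katnal1 are lower, and Pcnt overlaps in all groups.

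The order of the transcripts, on this per-length scale, changed with stage. In WT GV oocytes Tacc3 (282 ± 36.4 FPKM, SD, n = 4) and Aurka (280 ± 16.2 FPKM) led and overlapped each other. Plk1 (97.3 FPKM), Tpx2 (70.3 FPKM), Plk4 (48.8 FPKM), Pcnt (30.8 FPKM) and Ckap5 (20.7 FPKM) followed as group means with no overlap between neighbours, then Numa1 (7.81 FPKM) and Cep192 (6.40 FPKM), which overlapped, and Katnal1 (4.29 FPKM). In WT eggs Tpx2 (117 ± 2.78 FPKM), Tacc3 (114 ± 8.06 FPKM) and Aurka (110 ± 7.07 FPKM) overlapped at the top. Plk4 (78.3 FPKM) and Ckap5 (44.9 FPKM) came next, followed by Pcnt (30.3 FPKM) and Plk1 (28.3 FPKM), which overlapped. Cep192 (15.2 FPKM), Numa1 (11.7 FPKM) and Katnal1 (3.05 FPKM) followed without overlap. Psma7 cKO GV oocytes had the WT order of means except that Aurka (286 FPKM) came before overlapping Tacc3 (269 FPKM), and there Plk1 overlapped Tpx2 and Cep192 overlapped Katnal1. In Psma7 cKO eggs Aurka (147 ± 14.8 FPKM) stood first and overlapped Tacc3 (122 ± 4.01 FPKM), while Tpx2 (106 ± 5.29 FPKM) was below Tacc3 with no overlap. Plk4 (64.6 FPKM) came next, then Plk1 (36.2 FPKM), Ckap5 (35.7 FPKM) and Pcnt (31.6 FPKM), which overlapped, and Cep192, Numa1 and Katnal1 in the WT order.

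The comparison of WT eggs with WT GV oocytes asks how the stored transcripts change during normal maturation. Tpx2, Plk4, Cep192, Ckap5 and Numa1 rose, Aurka, Plk1, Tacc3 and Katnal1 fell, and Pcnt was not called. Thus 5 of 10 spindle pole transcripts were called higher, where 26.1% of the 10475 entries tested were, and 4 of 10 were called lower, where 52.4% were. The median log2 fold change of the 10 was 0.29, beside -0.44 over all entries tested. Cep192 rose most, by 1.26 ± 0.12 (log2, SE, adjusted p = 3.26e-06), followed by Ckap5 at 1.13 ± 0.10 (adjusted p = 2.23e-06). Plk1 fell most, with a log2 fold change of -1.78 ± 0.13 (adjusted p = 3.65e-07), and Aurka and Tacc3 followed at -1.35 ± 0.08 and -1.30 ± 0.10 (adjusted p = 5.01e-08 and 5.49e-07).

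The other calls were smaller. In WT, Tpx2 changed by 0.74 ± 0.07, Plk4 by 0.69 ± 0.09 and Numa1 by 0.59 ± 0.11 on the log2 scale (adjusted p = 1.59e-06, 4.62e-05 and 0.000480), all with eggs above GV oocytes in 4 of 4 libraries. Katnal1 changed by -0.49 ± 0.12 (adjusted p = 0.00343), close to the median of all entries. Pcnt had a log2 fold change of -0.02 with a 95% interval from -0.31 to 0.27 (adjusted p = 0.908). FPKM are relative to the library total, and dividing each library by its median ratio to a common reference moved the median of all entries by 0.23. On that scale Aurka was at -1.13, Plk1 at -1.55, Tacc3 at -1.08, Tpx2 at 0.96, Plk4 at 0.91, Cep192 at 1.48, Ckap5 at 1.35 and Numa1 at 0.81, each still called, whereas Katnal1 was at -0.27 and lost its call (adjusted p = 0.0597, 0.00157 to 0.0597 over all alternatives) and uncalled Pcnt turned from -0.02 to 0.20 (adjusted p = 0.160, 0.160 to 0.965 over all alternatives). Whether a rise in FPKM came from more RNA, longer poly(A) tails or the loss of other RNA cannot be told apart here.

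Psma7 cKO oocytes went through the same comparison with the same calls. Again 5 of 10 transcripts were called higher (23.0% of 10748 entries tested) and 4 of 10 lower (51.0%), with a median log2 fold change of 0.09 beside -0.42 over all entries. Cep192 rose by 1.36 ± 0.11 (log2, SE, adjusted p = 7.65e-06), Ckap5 by 1.01 ± 0.08 (adjusted p = 7.78e-06), Tpx2 by 0.55 ± 0.08 (adjusted p = 0.000172), Plk4 by 0.44 ± 0.09 (adjusted p = 0.00131) and Numa1 by 0.32 ± 0.11 (adjusted p = 0.0246). Plk1 was at -1.33 ± 0.15 (adjusted p = 5.29e-05), Tacc3 at -1.13 ± 0.10 (adjusted p = 1.40e-05), Aurka at -0.96 ± 0.09 (adjusted p = 1.73e-05) and Katnal1 at -0.79 ± 0.15 (adjusted p = 0.00107). Pcnt was at -0.15 with a 95% interval from -0.55 to 0.25 (adjusted p = 0.469). Numa1 lost its call without Psma7 cKO GV replicate 1 (adjusted p = 0.0556) and without Psma7 cKO egg replicate 1 or 2 (0.0571 and 0.0631), over a range of 0.00141 to 0.0780 for all alternatives. Rescaling moved the median of all entries by 0.25 and the share of higher calls among all calls from 31.1% to 42.0%. On that scale Cep192 was at 1.61, Ckap5 at 1.27, Tpx2 at 0.81, Plk4 at 0.69, Numa1 at 0.57, Katnal1 at -0.54, Aurka at -0.71, Tacc3 at -0.88 and Plk1 at -1.08, each still called, and uncalled Pcnt turned to 0.10.

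**Figure D2:**
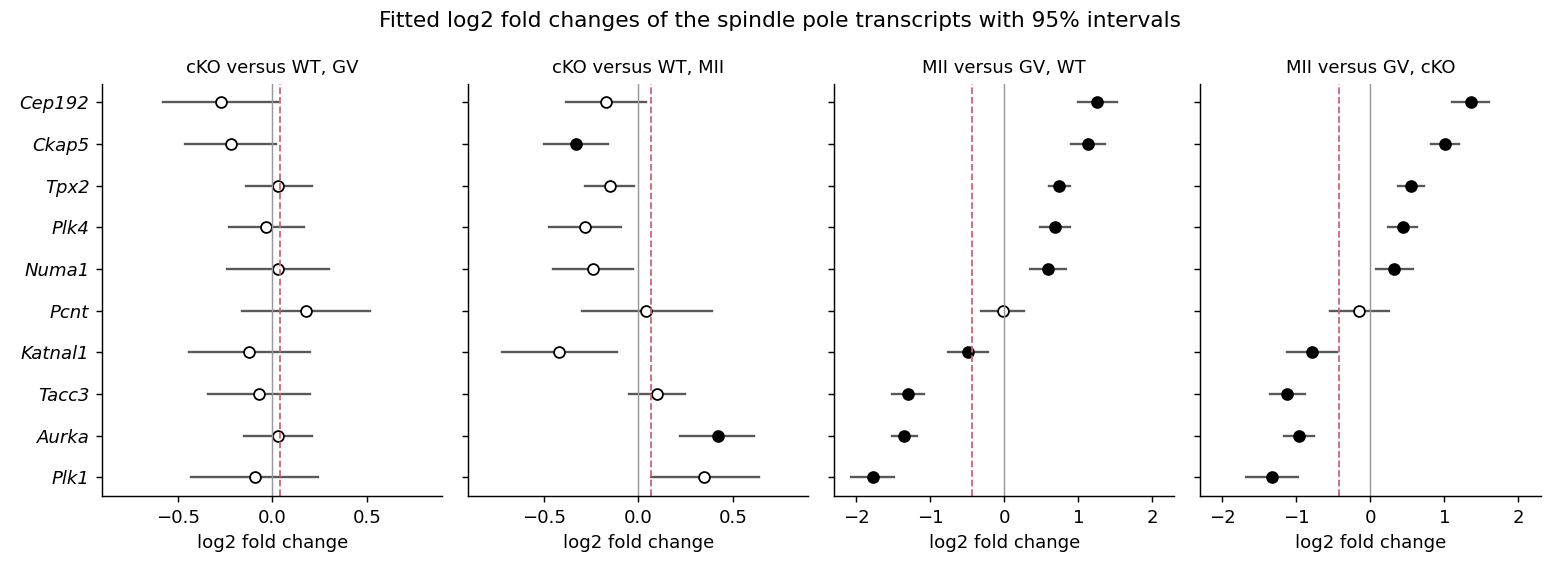
Fitted log2 fold change (x axis) of each spindle pole transcript (y axis) in 4 comparisons, with 95% intervals from limma, filled circles for an adjusted p under 0.05, a grey line at 0 and a dashed red line at the median of all entries tested. The maturation panels span a wider range than the genotype panels, where Aurka and Ckap5 in eggs are the filled circles.

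Among GV oocytes, the comparison of Psma7 cKO with WT asks what deletion during oocyte growth leaves in the stored pool, and none of the 10 transcripts was called. In limma 0 of 10 spindle pole transcripts were called higher (0.0994% of 11062 entries tested) and 0 of 10 lower (0.0181%), and 0 passed an unadjusted p of 0.05. Their log2 differences ran from -0.27 to 0.18 with a median of -0.05, beside 0.04 over all entries. Cep192 was the sole transcript whose groups did not overlap, with lower levels in Psma7 cKO, while 2.42% of entries were lower and 4.25% higher without overlap. It had a mean of 5.28 ± 0.493 FPKM in Psma7 cKO and 6.40 ± 0.914 FPKM in WT (SD, n = 4), a log2 difference of -0.27 with a 95% interval from -0.58 to 0.03 (adjusted p = 0.521). Ckap5 was next at -0.22, with an interval from -0.46 to 0.02 (adjusted p = 0.517). The narrowest intervals were those of Tpx2 (-0.14 to 0.21) and Aurka (-0.15 to 0.21), and the widest was that of Pcnt (-0.16 to 0.52).

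Among eggs, Aurka was higher and Ckap5 was lower in Psma7 cKO. Aurka stood at 147 ± 14.8 FPKM against 110 ± 7.07 FPKM in WT (SD, n = 4), 134% of the WT mean, and Ckap5 at 35.7 ± 2.08 against 44.9 ± 2.91 FPKM, 79.5% of the WT mean. These were 1 of 10 transcripts called higher, where 6.53% of 9492 entries tested were, and 1 of 10 called lower, where 1.49% were. The log2 difference of Aurka was 0.42 ± 0.09 (SE, adjusted p = 0.0325) and that of Ckap5 was -0.33 ± 0.07 (adjusted p = 0.0358), and all 4 Psma7 cKO libraries showed each direction. Of all calls in this comparison 81.5% were higher in Psma7 cKO, and 71.1% after rescaling, which left both transcripts called.

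Both calls sat near the threshold. Each was lost when any 1 of the 4 WT egg libraries or Psma7 cKO egg replicate 1, 3 or 4 was left out, and kept without Psma7 cKO replicate 2 (0.0102 for Aurka and 0.0290 for Ckap5). Both were also lost without the trend (adjusted p = 0.0515 for Aurka and 0.0600 for Ckap5) and with the replicate block (0.0515 and 0.0770). For Aurka the adjusted p without WT replicate 1, 2, 3 or 4 was 0.0983, 0.0720, 0.0704 or 0.0641, and without Psma7 cKO replicate 1, 3 or 4 it was 0.0597, 0.0581 or 0.0577. For Ckap5 these were 0.101, 0.0827, 0.0590 and 0.0796, then 0.0624, 0.0600 and 0.0661. The log2 difference ranged from 0.37 to 0.49 for Aurka and from -0.37 to -0.30 for Ckap5 over these fits. Without Psma7 cKO replicate 3, the library with the most declining maternal RNA left, they were 0.37 and -0.34. Over all alternatives the adjusted p ran from 0.00361 to 0.0983 for Aurka and from 0.0216 to 0.101 for Ckap5.

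The other spindle pole transcripts in eggs were not called. At an unadjusted p under 0.05, 2 of 10 were higher in Psma7 cKO, near the share of all entries (1952 of 9492), and 5 of 10 lower, where 835 of 9492 entries were. Without overlap between the groups, 1 of 10 was higher, beside 13.6% of entries, and 4 of 10 were lower, beside 7.06%: Tpx2, Plk4, Ckap5 and Katnal1. Katnal1 was at 75.2% of the WT mean, with a log2 difference of -0.42 ± 0.14 (adjusted p = 0.0862), Plk4 at 82.5% (-0.28 ± 0.08, adjusted p = 0.0704), Numa1 at 84.7% (-0.24 ± 0.09, adjusted p = 0.131) and Tpx2 at 90.0% (-0.15 ± 0.06, adjusted p = 0.121). Plk1 was at 128% of the WT mean, with a log2 difference of 0.35 ± 0.13 (adjusted p = 0.106). Cep192, Tacc3 and Pcnt had log2 differences of -0.17, 0.10 and 0.04, with 95% intervals that included 0. The median over the 10 was -0.16, beside 0.07 over all entries tested. With the spread shared over all 16 libraries, Plk4 and Katnal1 were called lower as well (adjusted p = 0.0369 and 0.0379), the lowest values over their alternatives, the highest being 0.145 and 0.201.

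In each transcript with a called change in WT maturation except Katnal1, the Psma7 cKO egg mean lay between the WT egg mean and the WT GV mean, a description with no test. It lay 21.8% of the way back for Aurka, 37.9% for Ckap5, 46.3% for Plk4, 45.8% for Numa1, 24.9% for Tpx2, 19.5% for Cep192, 11.6% for Plk1 and 4.75% for Tacc3. Katnal1 lay on the far side, below WT eggs. Beside these, the Psma7 cKO egg library with 8.80% of declining maternal RNA left had the lowest Aurka, 126 FPKM, and the library with 34.5% left had the highest, 161 FPKM. In the same libraries, in that order, Plk1 was at 32.6 and 31.3 FPKM. The latter was its lowest value among Psma7 cKO eggs, and its highest, 44.3 FPKM, was in the library with 12.7% left. Tacc3 was at 122 and 128 FPKM there, and Katnal1 at 2.28 and 2.26 FPKM. Ckap5 was at 38.1 and 36.7 FPKM, its upper values among Psma7 cKO eggs. The part of incomplete decline in the genotype differences among eggs was not tested, and in pooled oocytes less RNA per cell and a changed RNA composition cannot be told apart.

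Whether genotype changed the course of maturation was tested as a genotype by stage interaction over all 16 libraries. In limma 0 of 10 transcripts were called higher (1.07% of 10615 entries tested) and 0 of 10 lower (0.188%), and 1 passed an unadjusted p of 0.05, Aurka, with an interaction of 0.39 ± 0.12 (log2, SE, adjusted p = 0.0965). The egg difference of Aurka is therefore not shown to differ from its GV difference of 0.03. Without Psma7 cKO egg replicate 2 the adjusted p was 0.0209, and over all alternatives it ran from 0.0209 to 0.189. The interaction of Ckap5 was -0.11 ± 0.13 (adjusted p = 0.727), with GV and egg differences in the same direction. Plk1 had the largest estimate, 0.45, with a 95% interval from -0.01 to 0.90 (adjusted p = 0.291).

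The balance between partners was read within each library as 4 ratios, a choice made after the values were seen and given with no test. Aurka over Tpx2 was 3.82 to 4.32 in WT GV oocytes and 3.58 to 4.54 in Psma7 cKO GV oocytes. WT egg libraries had ratios of 0.89, 0.88, 0.99 and 0.98, and Psma7 cKO egg libraries 1.41, 1.11, 1.53 and 1.53. In FPKM the kinase transcript thus exceeded that of its activator in all GV libraries and in all Psma7 cKO egg libraries. It was below it in all WT egg libraries, though close to it in replicates 3 and 4 (0.99 and 0.98). FPKM depend on the transcript lengths used, so which transcript was in excess in WT eggs is not shown. Tacc3 over Ckap5 was 9.83 to 16.85 in WT and 13.00 to 18.77 in Psma7 cKO GV oocytes. It was 2.32, 2.67, 2.83 and 2.38 in WT eggs and 3.55, 3.20, 3.48 and 3.47 in Psma7 cKO eggs. For these ratios the genotypes overlapped at GV and did not overlap at MII. For Aurka over Tpx2 the separation at MII follows from the levels given above. Every Psma7 cKO egg library was above every WT egg library for Aurka and below every one for Tpx2. The remaining ratios, Plk4 over Cep192 (WT 4.39 to 6.21, Psma7 cKO 4.02 to 5.46 in eggs) and Pcnt over Cep192 (WT 1.99 ± 0.15, Psma7 cKO 2.33 ± 0.41 in eggs, mean ± SD), overlapped between genotypes at both stages.

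**Figure D3:**
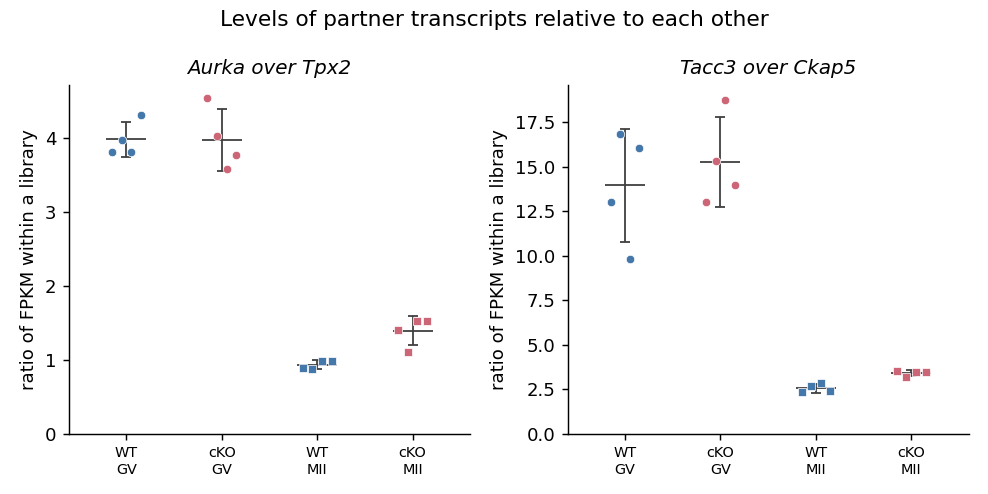
Ratio of FPKM within a library (y axis, starting at 0) for Aurka over Tpx2 and for Tacc3 over Ckap5 in the 4 groups (x axis), with each library as a point, WT in blue and Psma7 cKO in red, and the bar and whiskers showing mean ± SD (n = 4). Among eggs, Aurka over Tpx2 is 0.93 ± 0.06 for WT and 1.39 ± 0.20 for Psma7 cKO, and Tacc3 over Ckap5 is 2.55 ± 0.24 for WT and 3.43 ± 0.15 for Psma7 cKO.

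Other components of the pole were read from lists fixed by name, with no test of a list as a whole. Over all entries tested, 26.1% were called higher and 52.4% lower in WT maturation, with a median log2 fold change of -0.44, and 23.0% and 51.0% in Psma7 cKO maturation, with a median of -0.42. The gamma-tubulin ring complex nucleates microtubules and augmin branches them. Of its 18 genes, 15 were tested in WT maturation, 2 were called higher and 10 lower, with a median log2 fold change of -0.54 beside -0.44 over all entries. Tubgcp2 went from 18.1 ± 2.89 to 2.35 ± 0.375 FPKM (SD, n = 4, log2 -2.94, adjusted p = 3.53e-08), Mzt2 from 20.4 to 3.33 FPKM (-2.62, adjusted p = 4.32e-08) and Haus7 from 12.8 to 2.97 FPKM (-2.12, adjusted p = 4.92e-07). In Psma7 cKO maturation 16 were tested, 1 was called higher and 10 lower, with a median of -0.67 beside -0.42 over all entries, Tubgcp2 at -2.78 and Mzt2 at -2.43 and Haus8, an augmin subunit, at -1.74 (adjusted p = 2.01e-06, 6.39e-06 and 0.000162). The counts called lower and the medians of this list are near those of all entries in both genotypes, so they show no decline particular to it.

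The pericentriolar scaffold and centriole duplication list had more genes called higher than lower. All 15 genes were tested in WT maturation, 7 were called higher, where 26.1% of all entries were, and 3 lower, where 52.4% were, with a median of 0.32 beside -0.44. Pcm1, a centriolar satellite scaffold, rose by 1.24 (log2, adjusted p = 9.73e-06) from 28.3 ± 5.93 to 66.0 ± 6.41 FPKM (SD, n = 4). Ccp110, a centriole cap protein, rose by 1.20 (adjusted p = 3.65e-07), and Nek2, a centrosome-splitting kinase, was at -1.16 (adjusted p = 0.000324). In Psma7 cKO 6 were called higher (23.0% of all entries) and 4 lower (51.0%) with a median of 0.29 beside -0.42, and the same genes led, Nek2 at -1.21, Ccp110 at 1.18 and Pcm1 at 1.07 (adjusted p = 0.000237, 5.25e-06 and 3.29e-05). Pcm1 and Nek2 each had a second entry with a mean under 1 FPKM that was not tested.

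Among 10 Aurora paralogues, kinase cofactors and Ran gradient genes, 1 was called higher and 6 lower in WT maturation, and likewise in Psma7 cKO, with medians of -0.68 and -0.67. Over all entries 52.4% were called lower in WT and 51.0% in Psma7 cKO, with medians of -0.44 and -0.42, so 6 of 10 lower is close to the share of all entries. The gene called higher in both was Aurkc, the germline Aurora kinase, named here after its values were seen, from 3.43 to 6.71 FPKM in WT (log2 0.96, adjusted p = 0.000176). Kpna2, an importin that keeps TPX2 inactive away from chromatin, fell from 1121 ± 64.5 to 281 ± 5.29 FPKM in WT (SD, n = 4, log2 -1.99, adjusted p = 1.79e-09). Rangap1 was at -1.88 and Gtse1, a microtubule-binding spindle protein, at -1.37 (adjusted p = 6.44e-06 and 5.30e-06). In Psma7 cKO the corresponding log2 values were -1.20, -2.48 and -1.03 (adjusted p = 3.67e-05, 2.01e-06 and 4.34e-05). Kpna2 was the gene of this list called between egg genotypes, 484 ± 87.6 FPKM in Psma7 cKO against 281 ± 5.29 FPKM in WT (log2 0.76, adjusted p = 0.0191), 1 of 9 tested, where 6.53% of all entries were called higher, and its interaction was called too (0.79, adjusted p = 0.0199). Its egg call was lost without WT egg replicate 1, 3 or 4 (adjusted p up to 0.0701), and its interaction call was kept with each library left out (up to 0.0488).

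Of 16 genes for microtubule ends, crosslinking and pole focusing, 14 were tested in maturation. In WT 6 were called higher (26.1% of all entries) and 6 lower (52.4%), in Psma7 cKO 7 (23.0%) and 7 (51.0%), with a median of 0.00 in both, beside -0.44 and -0.42. Nudc, a dynein cofactor, went from 506 ± 129 to 89.2 ± 11.4 FPKM in WT (SD, n = 4, log2 -2.48, adjusted p = 1.76e-07), and Camsap3, a minus-end protein, and Gpsm2 (LGN), which anchors NuMA, were at -2.14 and -2.08 (adjusted p = 6.81e-05 and 2.66e-06). In Psma7 cKO Camsap3 was at -2.39, Gpsm2 at -2.27 and Wdr62, a pole protein, at -2.15 (adjusted p = 7.62e-06, 9.19e-06 and 1.59e-06). Between egg genotypes 1 of 13 tested was called, near the 6.53% of all entries called higher. It was Aspm, which focuses poles together with katanin, at 35.5 ± 6.15 FPKM in Psma7 cKO and 24.0 ± 0.715 FPKM in WT (log2 0.55, adjusted p = 0.0333), while its interaction was not (0.61, adjusted p = 0.0766). Its egg call was lost without WT replicate 1, 2, 3 or 4 or Psma7 cKO replicate 1 or 3 (adjusted p up to 0.0947) and with the replicate block (0.0636), and kept without Psma7 cKO replicate 2 or 4.

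The katanin family and other severing proteins split as well. Of 8 genes, 6 were tested, 3 were called higher (26.1% of all entries in WT and 23.0% in Psma7 cKO) and 2 lower (52.4% and 51.0%) in each genotype, with medians of 0.05 in WT and -0.04 in Psma7 cKO beside -0.44 and -0.42. Katnal2 went from 23.5 ± 2.00 to 3.52 ± 0.413 FPKM in WT (SD, n = 4, log2 -2.74, adjusted p = 6.78e-09), and Katnbl1 rose by 0.95 (adjusted p = 3.03e-06). In Psma7 cKO their log2 changes were -2.19 and 1.10 (adjusted p = 1.80e-05 and 3.84e-05). Beside these, the WT log2 change of Katnal1 was -0.49, and it was not called after rescaling.

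Between genotypes these 5 lists held few calls. At GV limma called 0 genes on any of them, with medians from -0.03 to 0.10 beside 0.04 over all entries, and with 3 gamma-tubulin or augmin genes, 1 scaffold gene, 1 Aurora or Ran gene and 1 severing gene at an unadjusted p under 0.05, each higher in Psma7 cKO. At that threshold 843 of 11062 entries were higher at GV and 339 lower, so all entries leaned the same way. In eggs 0 of 15 gamma-tubulin and augmin genes, 0 of 15 scaffold genes and 0 of 5 severing genes were called, where 6.53% of all entries were called higher and 1.49% lower, with medians of 0.20, -0.09 and 0.05 beside 0.07 over all entries. At an unadjusted p under 0.05 limma had 3 gamma-tubulin or augmin genes higher, 3 scaffold genes lower, and 1 severing gene in each direction, where 1952 of 9492 entries were higher and 835 lower. The medians of the Aurora and Ran list and of the microtubule end list in eggs were 0.12 and 0.00. In the interaction 0 genes of the gamma-tubulin, scaffold, microtubule end and severing lists were called by limma, where 2, 1, 1 and 1 of their genes passed an unadjusted p of 0.05, as did 1347 of 10615 entries higher and 534 lower.

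Among the 10 oocyte markers 0 were called at GV by limma, where an unadjusted p under 0.05 was met by 0, and in eggs 3 were called higher in Psma7 cKO, where 6.53% of all entries were, and 5 of 10 were higher at an unadjusted p under 0.05, where 1952 of 9492 entries were. The called markers were Figla (4.96 ± 2.02 against 1.60 ± 0.426 FPKM, log2 1.57, adjusted p = 0.0311), Zp3 (948 ± 267 against 406 ± 67.8 FPKM, 1.20, adjusted p = 0.0203) and Ooep (0.53, adjusted p = 0.0499). Leaving out WT egg replicate 1, 3 or 4 ended the Zp3 call, any WT egg replicate or Psma7 cKO egg replicate 1 or 4 the Figla call, and every egg library except Psma7 cKO replicate 4 the Ooep call, with adjusted p up to 0.0701, 0.0827 and 0.138. Rescaling left Figla and Zp3 called but not Ooep (0.0541), whose call was also lost with 1 FPKM added (0.0518), no filter (0.0720), no trend (0.0680), the replicate block (0.0797) and all 16 libraries in one fit (0.0677), and was kept in 3 of 16 alternatives. The replicate block also ended the Figla and Zp3 calls in eggs (0.0763 and 0.0502). The interaction was called for Figla (1.68, adjusted p = 0.0425, kept in 8 of 23 alternatives) and Zp3 (1.14, adjusted p = 0.0235, kept in 22 of 23), and limma called 0 of 2 granulosa markers, with 0 at an unadjusted p under 0.05. Figla and Zp3 are among the markers that fell in WT maturation, with log2 changes of -3.55 and -3.31, and Zp1 followed at -3.15 (adjusted p = 7.49e-08, 1.71e-09 and 5.80e-08). Of the 10 oocyte markers 2 were called higher and 6 lower in each genotype, near the shares of all entries (26.1% and 52.4% in WT, 23.0% and 51.0% in Psma7 cKO). Their median log2 changes, -1.02 in WT and -1.07 in Psma7 cKO, were lower than the -0.44 and -0.42 of all entries. In Psma7 cKO, Zp1, Zp3 and Zp2 were at -2.39, -2.17 and -2.02 (adjusted p = 1.22e-06, 6.36e-06 and 4.27e-06).

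The genes lie apart in the genome. In the GRCm38 (mm10) build, GENCODE M21 places Tpx2 at chr2:152847964-152895321 (plus strand), Aurka at chr2:172356190-172370535 (minus) and Ckap5 at chr2:91526762-91620664 (plus). Plk1 is at chr7:122159439-122169873 (plus), Numa1 at chr7:101934111-102014964 (plus), Tacc3 at chr5:33658128-33678995 (plus) and Katnal1 at chr5:148871584-148929320 (minus). Plk4 is at chr3:40800019-40816883 (plus), Pcnt at chr10:76351263-76442786 (minus) and Cep192 at chr18:67800107-67885170 (plus). Their annotated mRNAs run from 1905 bases for Aurka to 9341 bases for Pcnt, and the 3′ untranslated region from 154 bases for Tacc3 to 4554 bases for Katnal1.

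For each spindle pole transcript, at most 2 of the entries closest in pattern are given, without an entry whose GV means lie under the floor, found by the root mean square difference of centred log2 values over the 16 libraries, among 10615 entries. Tpx2 was closest to Ubxn4 (0.06), Aurka to Zfp78 (0.09) and Plk1 to Trpc4ap (0.14) and Osbpl10 (0.15). Plk4 was closest to Hells (0.08) and Tiparp (0.09), Cep192 to Usp9x (0.08) and Dut (0.09) and Pcnt to Spag5 (0.10) and Leo1 (0.11). These neighbours had levels of their own, for example Spag5 at 6.61 FPKM in WT GV oocytes and 6.54 FPKM in WT eggs, as flat across stages as Pcnt at a lower level. Tacc3 was closest to Cand1 and Oas1c (0.11 each), Ckap5 to Fam208b (0.08) and Rb1 (0.09), Numa1 to Hmgxb4 and Bptf (0.09 each) and Katnal1 to Pou4f1 and Pdcd6ip (0.15 each). Plk1 and Katnal1 had no entry closer than 0.14.

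Stored oocyte mRNAs are often switched on by cytoplasmic polyadenylation, in which CPEB protein bound to a U-rich element near the poly(A) signal directs tail lengthening. The last 100 bases of the annotated 3′ untranslated region of each gene were therefore searched, on the mRNA strand only, for the polyadenylation signals AATAAA or ATTAAA and for the cytoplasmic polyadenylation elements TTTTAT or TTTTAAT, written as DNA. A signal was found in 8 of 10 spindle pole genes and in 82.6% of 8293 expressed genes. An element was found in 4 of 10, Aurka, Plk4, Pcnt and Ckap5, and in 20.8% of expressed genes. The 4 do not share a course in maturation, since Plk4 and Ckap5 rose, Aurka fell and Pcnt was not called. A match is a run of letters and not a tested site, and genes with other 3′ ends in oocytes would have other windows.

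Both motifs occurred together in 3 of 10 spindle pole genes and in 17.8% of expressed genes. Their 3′ ends are shown because the spacing of element and signal can be seen directly, with both motifs in capitals, each read 5′ to 3′ on the mRNA strand and lying in the annotated 3′ untranslated region. The Plk4 site is at chr3:40816840-40816869 (plus strand), the Pcnt site at chr10:76351276-76351305 (minus) and the Ckap5 site at chr2:91620629-91620658 (plus).
Plk4: caaatacaTTTTATaaAATAAAcacagtgg
Pcnt: ttctTTTTATtggcaaaacaAATAAAacta
Ckap5: taagagacTTTTATaAATAAAgtttgcatt
Cep192, which rose most in WT, and Katnal1 had a signal and no element in this window, and their sites are not shown. For comparison, Tpx2 (chr2:152895292-152895321, plus) and Numa1 (chr7:102014923-102014952, plus), which also rose, and Plk1 (chr7:122169843-122169872, plus), which fell most in WT, likewise had a signal and no element.
Tpx2: gtaagccagccccaATTAAAtgttgtttat
Numa1: ttattacttgtaAATAAAgtctatttttct
Plk1: agctttatatatATTAAAatgtgtacatct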

How the data were processed

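Libraries were mapped and quantified by the authors; TopHat2 2.1.1, Cufflinks 2.2.1 and mm10 are named in the submitters' processing notes, and the annotation is not given in the sources used here. The deposited FPKM values are relative to each library's total and carry no between-library scaling; spike-in values were not analysed here. Depth was estimated from low values that equal 1 fragment (values under 0.6 FPKM, genes with a single GENCODE M21 transcript).

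FPKM under 1 were set to 1, and log2 values of entries averaging 1 FPKM or more in the fitted libraries were analysed with limma 3.58.1 (R 4.3.3, empirical Bayes with trend). A fold change is on this floored scale and understates low genes. P-values were adjusted over all entries tested (Benjamini-Hochberg, threshold 0.05). Each comparison used its own 8 libraries and the interaction all 16. The fitting code was tested on simulated data. The spindle pole genes and lists were chosen with earlier results of these data known. From each list at most 3 called genes per comparison, those with the largest absolute fold change, were named; exceptions are marked. 3′ ends were read from GENCODE transcripts paired with a RefSeq mRNA, the longest per gene. Alternatives covered the floor, added value, filter, rescaling, trend, replicate number, shared fit, summed entries and each library left out. Protein sequences were not used here.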

Additional observations from a re-analysis of the deposited data

Results flagged for a closer look

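A library stood apart from the others of its group in 8 of 158 sets of 4 values checked, about the 1 in 20 that chance gives. Among the spindle pole transcripts this was Plk4 in WT GV replicate 2, at 56.4 FPKM beside 45.1 to 46.9 FPKM in the others; leaving it out moved the Plk4 genotype difference at GV from -0.03 to 0.04, uncalled either way. The others were Ccp110 at 39.1 FPKM in WT egg replicate 1, Kpna2 at 983 FPKM in Psma7 cKO GV replicate 4, Mzt2 at 7.13 FPKM in Psma7 cKO egg replicate 3, Nek2 at 13.9 FPKM and Tubgcp2 at 13.8 FPKM in WT GV replicate 3, Ooep at 1738 FPKM in WT egg replicate 2, and the summed oocyte markers at 16148 FPKM in Psma7 cKO GV replicate 2. Psma7 cKO egg replicate 3 was also the library with the most declining maternal RNA left (34.5%), and the part of that in its Mzt2 value was not tested.

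The genotype difference itself changed between GV oocytes and eggs, by the interaction in limma, for 3 of the named list genes: Figla by 1.68 (log2, adjusted p = 0.0425), Zp3 by 1.14 (adjusted p = 0.0235) and Kpna2 by 0.79 (adjusted p = 0.0199). The Figla call was kept in 8 of 23 alternatives. It was lost with 1 FPKM added (adjusted p = 0.0662), with no filter (0.0641) and with the replicate block (0.0686). With 1 library left out its adjusted p rose as far as 0.0879, and stayed under 0.05 without WT egg replicate 2, Psma7 cKO egg replicate 1 or 2, or WT GV replicate 2. Zp3 passed except without Psma7 cKO GV replicate 3 (0.0513), and Kpna2 with each library left out. None of the 10 spindle pole transcripts met this threshold, Aurka being nearest at an adjusted p of 0.0965.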

How the results depend on the processing

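Over all alternatives the 10 spindle pole transcripts gave 169 values in each 2-group comparison. In WT maturation 165 kept direction and call, in Psma7 cKO maturation 164, between egg genotypes 146 and between GV genotypes 159, and 238 of 239 did so for the interaction. The egg genotype comparison was the least settled. Its 2 called transcripts became 0 without the trend, 0 with the replicate block and 4 with all 16 libraries in one fit, and 0 to 2 with a library left out. Its 761 calls over all entries became 459 without a filter, 501 without the trend, 108 with the replicate block, 1582 in the shared fit and 3 to 1160 with a library left out (3 without WT egg replicate 3, 1160 without Psma7 cKO egg replicate 2). The cause was not tested.

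At GV the 13 calls over all entries became 5 without a filter, 6 with a mean of at least 5 FPKM, 22 without the trend, 6 with the replicate block, 157 in the shared fit and 5 to 19 with a library left out. A mean of at least 5 FPKM, which tests fewer entries, gave 5112 calls in WT maturation, where the main fit gave 8224, and 4962 in Psma7 cKO maturation, where the main fit gave 7954, and Katnal1 was not tested. The 134 interaction calls became 83 with 1 FPKM added, 208 at the stricter filter, 60 with the replicate block and 41 to 651 with a library left out, and the called spindle pole transcripts 0 to 1. The mean percentage of declining maternal RNA left in WT eggs moved from 6.25% to 6.92% as a median over entries and to 10.7% with a 5-fold limit. For these changes too the cause was not tested.

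Replicate numbers are shared between groups, but same-numbered libraries did not deviate together (correlations of deviations from -0.496 to 0.285), so the replicate block is not a paired analysis. With it, calls were lost in eggs for Aurka (adjusted p = 0.0515), Ckap5 (0.0770), Psma7 (0.0515), Aspm (0.0636), Figla (0.0763), Zp3 (0.0502) and Ooep (0.0797), in WT maturation for Psma7 (0.0507), in Psma7 cKO maturation for Numa1 (0.0780), and in the interaction for Figla (0.0686). Without the trend Aurka (0.0515), Ckap5 (0.0600) and Ooep (0.0680) lost their egg calls, and without a filter Psma7 (0.0549) and Ooep (0.0720). The Psma7 call in WT maturation was also lost with no filter (0.0625), no trend (0.0582), rescaling (0.348) and the shared fit (0.271). It was lost in 6 of 8 fits with a library left out as well. The cause was not tested.

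With 1 library left out, uncalled log2 differences reached 0.07 for Tpx2, -0.22 for Plk1, -0.07 for Plk4 and -0.15 for Tacc3 at GV. They reached 0.16 for Pcnt in eggs and -0.09 for Pcnt in WT maturation, where rescaling went further (0.20). Some uncalled differences near 0 changed sign. At GV these were Aurka (-0.0013 after rescaling, -0.01 without WT replicate 1), Numa1 (-0.0039 after rescaling, -0.01 and -0.02 without WT replicate 1 and 2, -0.02 without Psma7 cKO replicate 4), Tpx2 (-5.7e-05 without Psma7 cKO replicate 3), Plk1 and Tacc3 (0.03 and 0.01 without Psma7 cKO replicate 1) and Plk4 (0.04 without WT replicate 2). Pcnt did so in eggs (-0.0043 after rescaling, -0.03 without WT replicate 4, -0.08 without Psma7 cKO replicate 1), in WT maturation (0.20 after rescaling, 0.09 without GV replicate 4, 0.06 without egg replicate 4) and in Psma7 cKO maturation (0.10 after rescaling). With 4 libraries a group, the 95% intervals of the Pcnt genotype difference were -0.16 to 0.52 at GV and -0.30 to 0.39 in eggs, so differences within those limits are not excluded.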
